A study of Homo sapiens with 6 samples.

Results

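The heat shock protein genes and the DNAJ cochaperone genes were examined in A2780 cells, a human ovarian cancer cell line, with and without added r-CRMP2. Members were taken by name: protein-coding genes whose symbols begin with HSPA, HSPB, HSPD, HSPE, HSPH, HSP90A, DNAJA, DNAJB or DNAJC. HSPA5, HSP90B1, DNAJB9 and DNAJC3, which belong to the endoplasmic reticulum (ER), were left out. The rule gave 73 of the 44591 genes counted, of which 19233 were protein-coding. It used no measured value.

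r-CRMP2 is the recombinant form of human collapsin response mediator protein-2, a microtubule-associated protein. A2780 cells of the wild-type label were grown in DMEM with fetal bovine serum, and 3 libraries came from untreated cells and 3 from cells given 40 ng/ml r-CRMP2 for 48 h. Polyadenylated RNA was sequenced in bulk to learn which pathways responded to r-CRMP2. The labels describe no carrier protein or buffer for the untreated cells, and they do not say that the libraries of a group came from separate cultures, so p-values measure only the spread between these samples, which may be technical.

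Heat shock proteins are molecular chaperones, which bind unfolded proteins and help them fold, assemble or reach degradation. HSP70 proteins take up a client with the help of a J protein of the DNAJ family, which stimulates their ATPase, and release it with the help of exchange factors such as the HSP110 and BAG proteins. HSP90 accepts many clients from HSP70 and finishes their folding, and heat shock factor 1 (HSF1) drives the inducible genes of the family when unfolded proteins accumulate.

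The working name of the group, cytosolic chaperones, held only in part. By the location lists used here, 10 members were mitochondrial and 8 were in the ER. HSPA13, which is found in microsomes, was on neither list. The name rule also took HSPB11, HSPBAP1 and HSPBP1, which are not heat shock proteins, and the readthrough genes HSPE1-MOB4 and DNAJC25-GNG10, which join a member to the neighbouring gene.

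Libraries held 21888530 to 25711353 counts. The r-CRMP2 replicate 3 library had the most counts but listed only 22438 genes with a count, against 25152 to 26302 in the other 5 libraries. Fold changes between groups depended on the scaling. TMM, which scales libraries on the bulk of genes, gave factors of 1.10 to 1.12 for untreated libraries and 0.879 to 0.922 for r-CRMP2 libraries. With total counts alone, the median log2 fold change of all genes moved by -0.31. Changes below are given relative to the bulk of genes, as TMM-scaled CPM (the share of a library's counts, on a fixed scale). As markers of the cell line, KRT8 and KRT18 were high, at mean TPM (a share of the library corrected for gene length) of 1362 and 1986 in untreated cells, but CDH1 and WT1 were nearly absent, at 0.0622 and 0.0541. Over the 9 epithelial and ovarian cancer markers the summed TPM was 3576 to 3729 in untreated and 3146 to 3390 in r-CRMP2 libraries. For 10 fibroblast markers it was 263 to 301 and 191 to 204, mostly COL1A1, with FAP at 0.228 in untreated cells. The sum over 6 immune markers was 28.7 to 34.2 and 77.9 to 78.8, nearly all from CD68, while PTPRC stood at 0.0174 in untreated cells. Their part in the results below was not tested. In bulk RNA, fewer expressing cells and less RNA per cell cannot be told apart.

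Members' promoters were read first, because several genes that moved in opposite directions carry the same element. The heat shock element, which HSF1 binds, is built of GAA units in alternating orientation. RefSeq gave a promoter for 64 of the 73 members (GRCh38.p14), and the 250 bases before each start were searched on both strands for a pair of units, GAANNTTC or TTCNNGAA, and for 3 units in a row. A pair was found for 20 of the 64 members and 3 units for 6 of them: HSP90AA1, HSP90AB1, HSPA6, HSPA8, HSPD1 and DNAJB6. Counted over start sites, 23.5% of the members' 85 promoters held a pair against 11.6% of all 35116 promoters, and 7.06% against 0.441% held 3 units. The elements of the genes on which the results turn are shown 5′ to 3′ on the gene's strand, with the units and the bases between them in capitals. In HSPD1 the run goes on to the fourth unit. For HSP90AA1, HSP90AB1, HSPD1 and DNAJB1 they lie in 1 of the promoters listed for the gene, and the others hold none.
HSP90AA1, chr14:102087114-102087138, minus strand: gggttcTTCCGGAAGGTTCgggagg
HSP90AB1, chr6:44247772-44247796, plus strand: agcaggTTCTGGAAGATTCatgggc
HSP90AB1, chr6:44247825-44247849, plus strand: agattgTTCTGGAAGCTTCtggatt
HSPA8, chr11:123062173-123062197, minus strand: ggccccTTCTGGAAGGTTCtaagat
HSPA8, chr11:123062348-123062372, minus strand: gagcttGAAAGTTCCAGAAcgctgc
HSPA6, chr1:161524460-161524484, plus strand: gaaaggTTCGCGAAAGTTCgcggcg
DNAJB6, chr7:157336867-157336891, plus strand: agccgaGAACCTTCGCGAAggtggg
HSPD1, chr2:197500062-197500090, minus strand: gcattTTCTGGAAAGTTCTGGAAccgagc
HSPA1A, HSPA1B, DNAJB1, DNAJA1, HSPB8 and HSPB1 carried pairs of units.
HSPA1A, chr6:31815431-31815450, plus strand: accctgGAATATTCccgacc
HSPA1B, chr6:31827627-31827646, plus strand: cccctgGAATATTCccgacc
DNAJB1, chr19:14518431-14518450, minus strand: gctctgGAAGCTTCcgccgg
DNAJB1, chr19:14518461-14518480, minus strand: ggggcgGAAGGTTCtggagg
DNAJA1, chr9:33025069-33025088, plus strand: gctccaGAAGATTCcacgag
HSPB8, chr12:119178837-119178856, plus strand: acctccGAATATTCctgtga
HSPB1, chr7:76302485-76302504, plus strand: acgagaGAAGGTTCcagatg
HSPA1L, which is transcribed away from HSPA1A, holds the HSPA1A pair in its own promoter window on the opposite strand. Promoters of HSPA1A and HSPA1B were 93.6% identical over the aligned upstream bases. Such matches describe letters and not occupied sites.

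Expression of the members was measured next. edgeR's filter on low counts kept 63 of the 73 members among 16222 genes tested. At an adjusted p under 0.05 (edgeR's quasi-likelihood test, Benjamini-Hochberg over all genes tested), 13 members were upregulated and 24 were downregulated in r-CRMP2 cells, and 26 passed in neither direction. Upregulated members were 20.6% of those tested, against 28.2% of all genes tested, and downregulated members were 38.1%, against 30.1% of all genes. The median log2 fold change of the members was -0.12, against -0.03 over all genes. CPM did not overlap between the groups for 13 members that were higher and 27 that were lower in r-CRMP2 cells, with 30.9% and 33.3% of all genes tested in those classes. Only DNAJB2 passed the adjusted p with a log2 fold change over 1, a class that held 5.12% of all genes tested. HSPA2, HSPBAP1, HSPB8, DNAJC22 and HSPA6 did so with a log2 fold change under -1, a class that held 8.86% of all genes tested. HSPA6 had fewer than 10 counts in each r-CRMP2 library and entered the test through the untreated libraries alone. Its call is therefore not taken as support. With at least 10 counts required in every library, HSPA6 was not tested and this class held 4 genes. This class fell to 3 genes without untreated replicate 2 or r-CRMP2 replicate 3, where HSPA6 and DNAJC22 dropped out, and without untreated replicate 3, where HSPA6 and HSPB8 did. Without untreated replicate 1, HSPB7 joined DNAJB2. With total counts alone the split was 6 upregulated and 45 downregulated, against 13.4% and 52.1% of all genes tested, and all 24 genes called downregulated with TMM were among the latter. The 21 members downregulated with total counts alone but not with TMM were HSPA4L, HSPA8, HSPA9, HSPB1, HSPD1, DNAJA3, DNAJB4, DNAJB11, DNAJB14, DNAJC1, DNAJC5, DNAJC6, DNAJC7, DNAJC9, DNAJC10, DNAJC12, DNAJC13, DNAJC15, DNAJC19, DNAJC21 and DNAJC27. Of the 13 called upregulated 6 kept the call, and HSP90AB1, HSPA1A, HSPA1B, DNAJA2, DNAJB6, DNAJC2 and DNAJC25-GNG10 lost it. With TMM but without the r-CRMP2 replicate 3 library the split was 13 and 23.

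**Figure D1:**
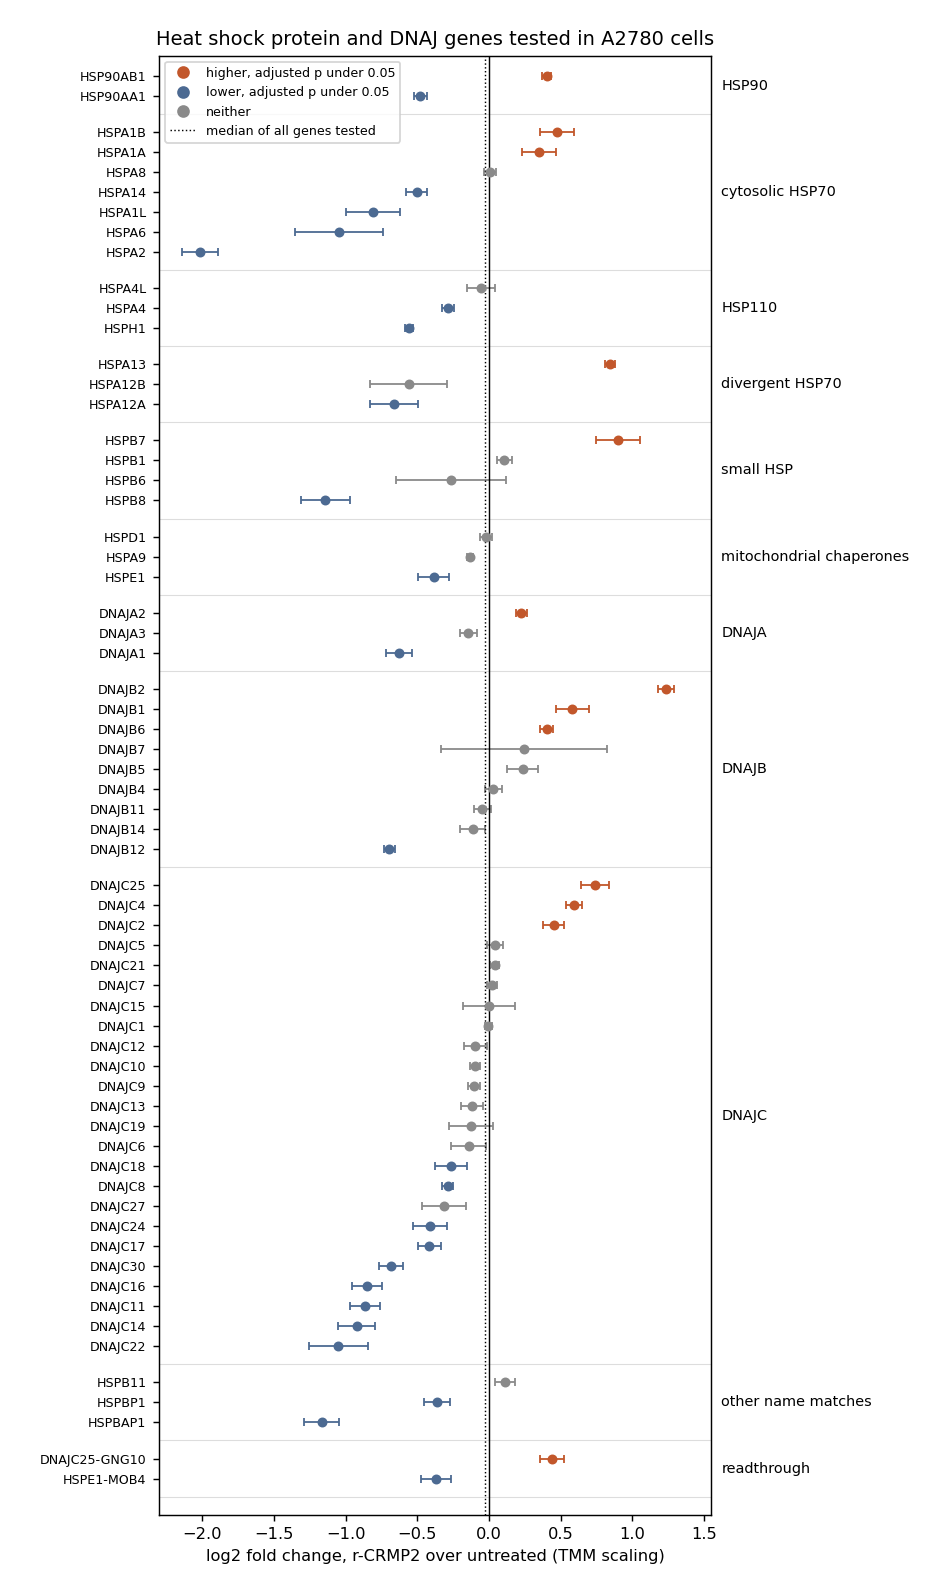
Log2 fold change (x axis, TMM scaling) of each of the 63 members tested (y axis), grouped by role, with the standard error as bars and the call by colour. Members of most roles lie on both sides of the median of all genes, from HSPA2 at -2.01 to DNAJB2 at 1.23, and with total counts alone every point would lie about 0.31 further left.

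By level, a few abundant genes made up most of the group's RNA. In TPM, HSP90AB1 led in untreated cells with 1494 ± 9.17 (mean ± SD, n = 3), followed by HSPA8 with 805 ± 6.58, HSPB1 with 785 ± 23.2, HSP90AA1 with 753 ± 28.2 and the mitochondrial HSPD1 with 678 ± 17.9. HSPA8 overlapped HSPB1, and HSPB1 overlapped HSP90AA1, so their order is not resolved. These 5 genes held 66.1% to 67.2% of the members' summed TPM in untreated and 68.8% to 69.3% in r-CRMP2 libraries. In r-CRMP2 cells HSP90AB1 was still first with 1573 ± 24.7, and HSP90AA1 had 431 ± 10.9. The summed TPM of all 73 members was 6694, 6725 and 6938 in untreated libraries. It was 5639, 5519 and 5574 in r-CRMP2 libraries, which gives a ratio of group means of 0.822 (exact permutation test, two-sided, p = 0.1, the smallest that 3 against 3 can give). TPM adds up to the same total in every library, and the median TPM ratio over all genes tested was 0.783. Summed as TMM-scaled CPM the same members gave 7487 ± 164 and 7587 ± 229, a ratio of 1.01 (exact permutation test, two-sided, p = 0.6, n = 3 a group).

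The 2 cytosolic HSP90 genes moved in opposite directions. HSP90AA1, the more inducible form, lies at chr14:102547075-102606086 (hg19, minus strand), and HSP90AB1, the constitutive form, at chr6:44213903-44221625 (hg19, plus strand). HSP90AA1 had 1300.4, 1190.2 and 1288 CPM in untreated libraries and 884, 924 and 904 CPM in r-CRMP2 libraries. Every r-CRMP2 library lay below every untreated one, and the log2 fold change was -0.48 ± 0.04 (SE; edgeR adjusted p = 2.26e-06). HSP90AB1 had 1811, 1741 and 1775 CPM in untreated and 2283, 2426 and 2324 CPM in r-CRMP2 libraries. All treated libraries were higher, with a log2 fold change of 0.40 ± 0.03 (edgeR adjusted p = 1.61e-05); with total counts alone this was 0.09 and did not pass. The ratio of the 2 genes within a library does not depend on scaling. HSP90AB1 TPM was 1.96, 2.06 and 1.94 times that of HSP90AA1 in untreated libraries and 3.64, 3.70 and 3.62 times in r-CRMP2 libraries. Both genes have 3 heat shock units in a row, as shown above, in 1 of the 2 RefSeq promoters listed for HSP90AA1 and, in 2 places, in 1 of the 3 listed for HSP90AB1, and the other listed promoters hold no pair of units.

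**Figure D2:**
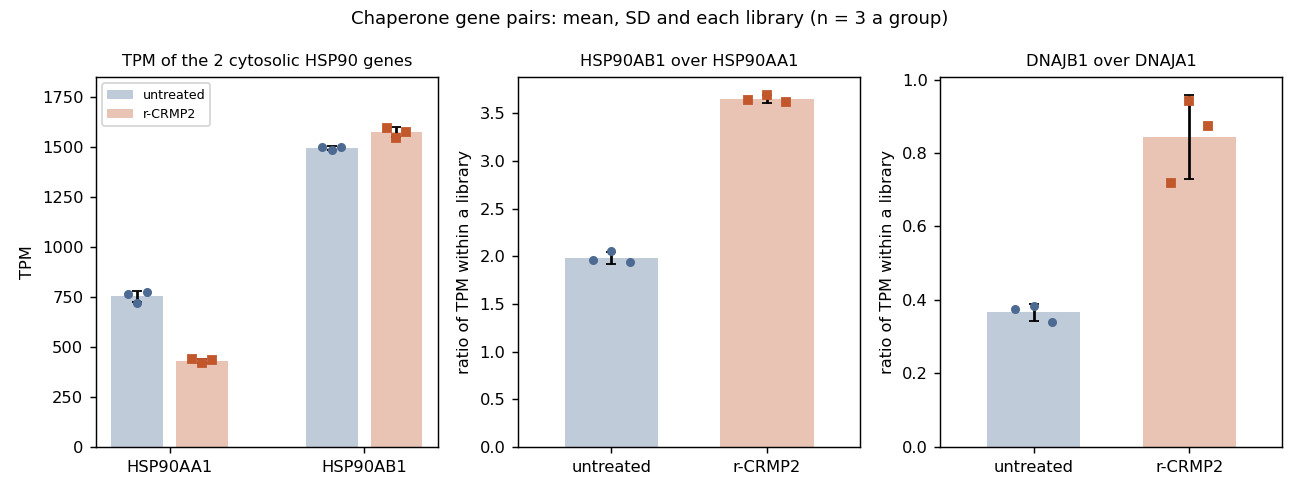
Left, TPM of HSP90AA1 and HSP90AB1 in untreated and r-CRMP2 cells. Middle and right, the ratio of TPM within each library for HSP90AB1 over HSP90AA1 and for DNAJB1 over DNAJA1. Bars are means, error bars are SD and points are the 3 libraries of a group; both ratios were higher in every r-CRMP2 library, with means of 1.99 against 3.65 and of 0.366 against 0.844.

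Of the 7 cytosolic HSP70 genes, all tested, 2 were upregulated, 4 were downregulated and 1 passed in neither direction. The 4 include HSPA6, which entered the test through the untreated libraries alone. The upregulated and downregulated shares were 28.6% and 57.1%, against 28.2% and 30.1% of all genes tested. The median log2 fold change of the 7 was -0.50, against -0.03 over all genes. With total counts alone none was upregulated and 5 were downregulated, against 13.4% and 52.1% of all genes tested. HSPA8, the constitutive HSP70 and by far the most abundant, had 830, 795 and 813 CPM in untreated and 785, 857 and 805 CPM in r-CRMP2 libraries. The groups overlapped and the log2 fold change was 0.00 ± 0.04 (edgeR adjusted p = 0.954), which became -0.31 with total counts alone. HSPA1A and HSPA1B are the stress-inducible HSP70 genes and encode nearly the same protein from neighbouring copies, at chr6:31783291-31785719 and chr6:31795512-31798031 (hg19). HSPA1A had 61.7, 60.9 and 59.2 CPM in untreated and 73.3, 90.03 and 68.8 CPM in r-CRMP2 libraries. HSPA1B had 56.5, 59.4 and 54.03 CPM in untreated and 71.8, 91.5 and 72.8 CPM in r-CRMP2 libraries. Both were upregulated, with log2 fold changes of 0.35 ± 0.12 (edgeR adjusted p = 0.0012) and 0.47 ± 0.12 (edgeR adjusted p = 7.34e-05), and the second r-CRMP2 library was the highest for both. With total counts alone these values were 0.04 and 0.16, and neither passed. The genes share 69.9% and 68.8% of their 100-base stretches, so how reads were split between them is uncertain. Their summed TPM over that of HSPA8 was 0.142, 0.151 and 0.139 in untreated and 0.184, 0.211 and 0.175 in r-CRMP2 libraries, a ratio to which scaling does not apply.

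HSPA2, an HSP70 known for its role in male germ cells, had the largest fall of the members tested. At chr14:65007186-65009955 (hg19), it had 5.64, 6.07 and 6.84 CPM in untreated and 1.69, 1.31 and 1.57 CPM in r-CRMP2 libraries. Expression was 4.04-fold lower in r-CRMP2 cells (log2 fold change -2.01 ± 0.13, edgeR adjusted p = 2.80e-08), and the groups lay far apart. HSPA6, a strictly inducible HSP70 that is nearly silent in unstressed cells, had 15, 20 and 22 counts in untreated and 8, 9 and 5 counts in r-CRMP2 libraries. Its log2 fold change of -1.05 ± 0.30 just passed (edgeR adjusted p = 0.0457) and rested on few reads, 27.6% of its 100-base stretches being shared with HSPA7. HSPA6 passed the filter on low counts only through the untreated libraries, where it was higher, so its call is not taken as support for a fall. DESeq2 gave an adjusted p of 0.108 for HSPA6, and edgeR gave 0.132, 0.136, 0.085 and 0.181 without untreated replicate 2, untreated replicate 3, r-CRMP2 replicate 1 and r-CRMP2 replicate 3. HSPA1L fell by 0.81 on the log2 scale and HSPA14, which works at the ribosome, by 0.50 (edgeR adjusted p = 0.00516 and 1.94e-05). HSPA1L and HSPA1A, which start back to back around the pair of units shown above, therefore moved in opposite directions under TMM.

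Among the HSP110 exchange factors, HSPH1 and HSPA4 were downregulated and HSPA4L passed in neither direction. HSPH1 had 49.7, 49.5 and 51.9 CPM in untreated and 34.8, 33.3 and 34.6 CPM in r-CRMP2 libraries (log2 fold change -0.56 ± 0.03, edgeR adjusted p = 1.27e-06). HSPA4 had 189.6, 180.3 and 191.4 CPM in untreated and 157.6, 146.8 and 156.4 CPM in r-CRMP2 libraries (log2 fold change -0.28 ± 0.04, edgeR adjusted p = 0.00053). Neither gene's groups overlapped, and for HSPA4L the values were 27.5 to 29.4 CPM and 23.9 to 29.4 CPM. Of the divergent HSP70 genes, HSPA13, which is found in microsomes, was upregulated from 26.2, 24.9 and 24.5 CPM to 44.8, 44.3 and 46.4 CPM (log2 fold change 0.84 ± 0.04, edgeR adjusted p = 1.16e-08). HSPA12A was downregulated by 0.66 on the log2 scale and HSPA12B, at 0.253 to 0.652 CPM, passed in neither direction.

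Small heat shock proteins hold unfolded proteins in solution without ATP. Of 7 genes, 4 passed the filter. HSPB1 (HSP27), the most abundant, had 284, 287 and 295 CPM in untreated and 294, 329.8 and 309.7 CPM in r-CRMP2 libraries. These groups overlapped and HSPB1 passed in neither direction (log2 fold change 0.11 ± 0.05, edgeR adjusted p = 0.153), but it passed as upregulated without r-CRMP2 replicate 1 (edgeR adjusted p = 0.0437). HSPB8, which acts with BAG3 in the autophagy of misfolded proteins, fell from 19.3, 23.3 and 28.4 CPM to 11.1, 9.96 and 11.1 CPM. This was a 2.20-fold lower level (log2 fold change -1.14 ± 0.17, edgeR adjusted p = 1.85e-07) at chr12:119616595-119632551 (hg19), with the wider spread among untreated libraries. HSPB7, best known from heart muscle, rose from 15.03, 13.4 and 10.7 CPM to 22.4, 25.6 and 24.8 CPM (log2 fold change 0.90 ± 0.16, edgeR adjusted p = 1.04e-06). HSPB6 had 0.694 to 1.67 CPM in untreated and 0.914 to 1.26 CPM in r-CRMP2 libraries and passed in neither direction.

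Of the 3 mitochondrial chaperones, HSPE1 was downregulated and the other 2 passed in neither direction. HSPD1 (HSP60) and HSPE1 (HSP10) are partner subunits of one folding chamber and their genes lie head to head. HSPD1 had 673, 665 and 695 CPM in untreated and 642, 703 and 658 CPM in r-CRMP2 libraries (log2 fold change -0.02 ± 0.04, edgeR adjusted p = 0.782). HSPE1 had 63.03, 66.6 and 74.1 CPM in untreated and 47.3, 57.8 and 50.9 CPM in r-CRMP2 libraries (log2 fold change -0.39 ± 0.11, edgeR adjusted p = 0.000395). Groups overlapped for HSPD1 and did not for HSPE1. HSPD1 TPM was 4.18, 3.91 and 3.67 times that of HSPE1 in untreated and 5.31, 4.76 and 5.06 times in r-CRMP2 libraries. The pair overlap by 278 bases on opposite strands, HSPE1-MOB4 shares 94 of the 851 stretches of HSPE1, and whether strand was used in counting is not given in the sources used here, so HSPE1 is uncertain. HSPA9 (mortalin), the mitochondrial HSP70, had 469, 467 and 481 CPM in untreated and 423, 437 and 432 CPM in r-CRMP2 libraries. Its groups did not overlap, but it missed the threshold (log2 fold change -0.13 ± 0.02, edgeR adjusted p = 0.0566), and it passed without r-CRMP2 replicate 2 (edgeR adjusted p = 0.0399).

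DNAJ cochaperones gave 7 upregulated, 11 downregulated and 18 other genes among the 36 tested of 43, which is 19.4% and 30.6% against 28.2% and 30.1% of all genes tested. The split was 4 and 27 with total counts alone, against 13.4% and 52.1% of all genes tested under that scaling. Their median log2 fold change was -0.10, against -0.28 for the 25 HSP genes tested and -0.03 over all genes. Class A and class B J proteins, which are the general partners of cytosolic HSP70, differed from gene to gene. DNAJA1 had 132.9, 127.6 and 151.3 CPM in untreated and 92.1, 92.3 and 82.5 CPM in r-CRMP2 libraries and was downregulated (log2 fold change -0.63 ± 0.09, edgeR adjusted p = 5.21e-07). DNAJB1 (HSP40), the main inducible J protein, had 60.01, 59.2 and 61.8 CPM in untreated and 79.6, 104.6 and 86.95 CPM in r-CRMP2 libraries and was upregulated (log2 fold change 0.58 ± 0.12, edgeR adjusted p = 5.68e-06). DNAJB1 TPM over DNAJA1 TPM was 0.375, 0.385 and 0.339 in untreated libraries. It was 0.717, 0.940 and 0.874 in r-CRMP2 libraries, so the ratio was higher in each of them. DNAJA2 had 68.05 to 70.8 CPM in untreated and 77.2 to 83.2 CPM in r-CRMP2 libraries and passed with TMM at 0.23 ± 0.04 (edgeR adjusted p = 0.00474), but its value was -0.09 with total counts alone. The mitochondrial DNAJA3 passed in neither direction (log2 fold change -0.15 ± 0.06, edgeR adjusted p = 0.0677) but was called downregulated without r-CRMP2 replicate 2 (edgeR adjusted p = 0.0228).

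DNAJB2, a J protein rich in neurons that passes clients to the proteasome, had the largest rise of the members tested. At chr2:220144040-220151622 (hg19), it had 33.2, 34.03 and 30.2 CPM in untreated and 74.5, 76.8 and 77.6 CPM in r-CRMP2 libraries. Expression was 2.35-fold higher (log2 fold change 1.23 ± 0.06, edgeR adjusted p = 3.60e-11), and 0.92 on the log2 scale with total counts alone. DNAJB6, a suppressor of protein aggregation, had 71.5, 65.8 and 69.6 CPM in untreated and 89.5, 94.7 and 89.4 CPM in r-CRMP2 libraries (log2 fold change 0.40 ± 0.04, edgeR adjusted p = 2.25e-05). Its rise did not pass with total counts alone, where the log2 fold change was 0.09. DNAJB4, at 24.5 to 24.9 CPM and 23.3 to 26.6 CPM, passed in neither direction. DNAJB12, which sits in the ER membrane, was downregulated from 41.1, 43.5 and 43.97 CPM to 26.4, 27.2 and 25.8 CPM (log2 fold change -0.69 ± 0.04, edgeR adjusted p = 1.61e-07).

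Class C holds the J proteins with specialised tasks. Among 24 tested, 3 were upregulated, 9 were downregulated and 12 passed in neither direction, with a median log2 fold change of -0.12. The upregulated and downregulated shares were 12.5% and 37.5%, against 28.2% and 30.1% of all genes tested. With total counts alone the split was 2 and 21, against 13.4% and 52.1% of all genes tested. DNAJC2, which forms the ribosome-associated complex with HSPA14, rose from 33.1, 28.2 and 29.4 CPM to 40.5, 41.0 and 42.4 CPM (log2 fold change 0.45 ± 0.07, edgeR adjusted p = 6.03e-05), a call lost with total counts alone. Its partner HSPA14 fell from 38.1, 40.2 and 43.5 CPM to 30.2, 27.05 and 28.7 CPM, and DNAJC2 TPM over HSPA14 TPM went from 2.46, 1.98 and 1.91 to 3.79, 4.28 and 4.18. DNAJC2 overlaps PMPCB on the other strand by 2213 bases. Mean CPM over all libraries was 35.8 for DNAJC2 and 75.2 for PMPCB, so the rise of DNAJC2 and this ratio are uncertain. DNAJC25 had 9.42, 8.88 and 9.61 CPM in untreated and 17.2, 15.6 and 13.9 CPM in r-CRMP2 libraries (log2 fold change 0.74 ± 0.10, edgeR adjusted p = 1.17e-05). DNAJC25-GNG10, which shares 19.3% of its stretches with DNAJC25, was upregulated as well under TMM, and the split of reads between them is uncertain. DNAJC4 rose from 13.4, 14.5 and 13.01 CPM to 20.5, 21.5 and 19.8 CPM (log2 fold change 0.59 ± 0.06, edgeR adjusted p = 1.63e-05), but an antisense gene covers 4001 bases of it and it shares 16.7% of its stretches with NUDT22.

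Falls in class C were led by DNAJC22, DNAJC14, DNAJC11 and DNAJC16. DNAJC22 was low, at 3.13, 3.75 and 3.47 CPM in untreated and 1.59, 2.12 and 1.31 CPM in r-CRMP2 libraries (log2 fold change -1.05 ± 0.21, edgeR adjusted p = 0.00047). DNAJC14, known for the transport of a dopamine receptor, went from 49.8, 51.2 and 52.4 CPM to 31.3, 26.6 and 23.03 CPM (log2 fold change -0.92 ± 0.13, edgeR adjusted p = 5.90e-08), and it shares 26.3% of its stretches with another GENCODE gene. DNAJC11, which helps to shape the mitochondrial cristae, went from 56.8, 63.2 and 62.1 CPM to 36.9, 29.4 and 33.6 CPM (log2 fold change -0.87 ± 0.11, edgeR adjusted p = 3.71e-08) and overlaps THAP3 on the other strand. DNAJC16 fell by 0.85 on the log2 scale, from 19.4 to 23.5 CPM to 10.8 to 12.6 CPM (edgeR adjusted p = 8.72e-07). In all 4 genes every r-CRMP2 library was below every untreated one. The other 5 that fell were DNAJC30, DNAJC17, DNAJC24, DNAJC8 and DNAJC18, with log2 fold changes of -0.68 to -0.26, of which DNAJC18 lost its call under DESeq2, with RLE size factors, with no low-count filter and without untreated replicate 2, untreated replicate 3 or r-CRMP2 replicate 1. DNAJC5, the cysteine string protein of vesicles, and DNAJC7, which links HSP70 to HSP90, had log2 fold changes of 0.04 ± 0.06 and 0.02 ± 0.04 and passed in neither direction.

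**Figure D3:**
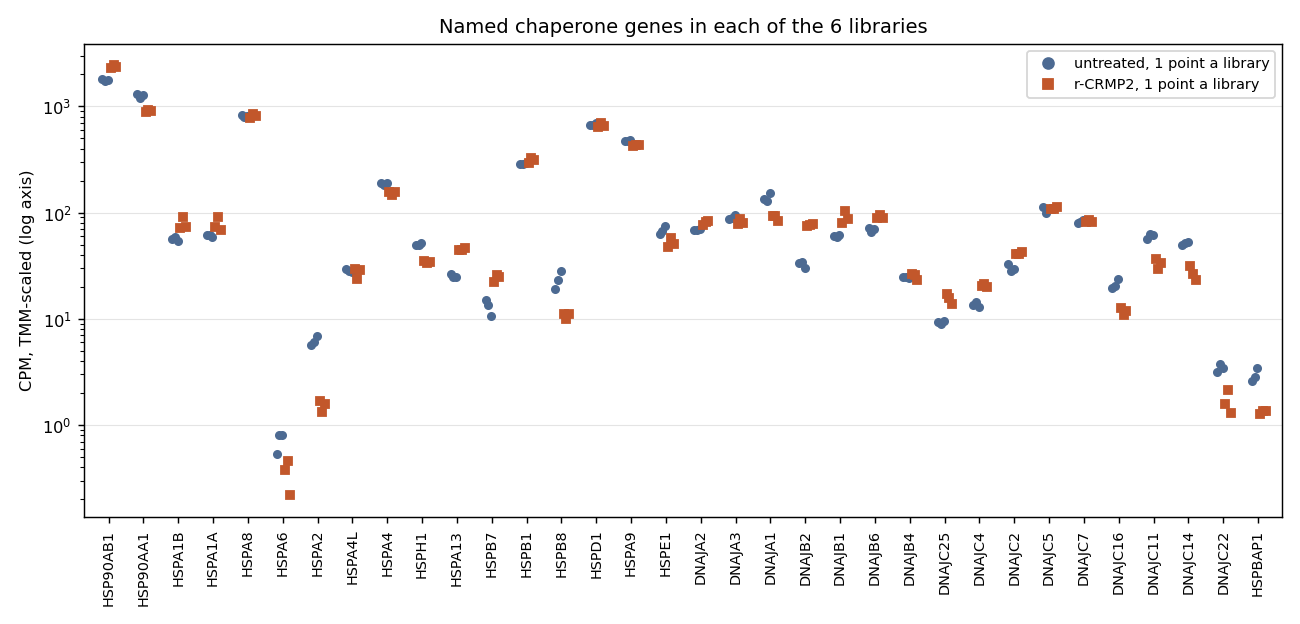
TMM-scaled CPM (y axis, log scale) of the 34 named members (x axis, ordered by role and then by fold change) in the 3 untreated and 3 r-CRMP2 libraries, 1 point a library. The groups are apart for HSPA2, HSPB8, DNAJB2 and both HSP90 genes and lie on top of each other for HSPA8, HSPD1, DNAJC5 and DNAJC7; with total counts alone every r-CRMP2 point would be lower.

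Of the 3 genes taken by name only, 2 were downregulated. HSPBAP1, named for its binding to HSPB1, had 2.62, 2.85 and 3.47 CPM in untreated and 1.26, 1.36 and 1.35 CPM in r-CRMP2 libraries (log2 fold change -1.17 ± 0.12, edgeR adjusted p = 0.00024). HSPBP1, an exchange factor of HSP70, fell by 0.36 on the log2 scale and HSPB11 passed in neither direction. The 10 members not tested were DNAJA4, DNAJB3, DNAJB8, DNAJB13, DNAJC5B, DNAJC5G, DNAJC28, HSPB2, HSPB3 and HSPB9. The highest value among them was 0.570 CPM, for DNAJA4 in 1 untreated library. DNAJC28, picked out after its values were seen, had 6, 11 and 9 counts in untreated and 0, 0 and 1 count in r-CRMP2 libraries.

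Promoter elements were found among members of every call. Of the 20 members with a pair of units, 5 were upregulated, 5 were downregulated, 8 passed in neither direction and 2 were not tested. Among all genes tested, 28.2% were upregulated and 30.1% were downregulated. Members with a RefSeq promoter numbered 13 among the upregulated, 21 among the downregulated and 23 among those that passed in neither direction. A pair was found for 20 of 64 members and for 3813 of 27305 genes with a promoter. Of the 6 with 3 units in a row, HSP90AB1 and DNAJB6 were upregulated, HSP90AA1 and HSPA6 were downregulated, and HSPA8 and HSPD1 passed in neither direction. HSPA6 entered the test through the untreated libraries alone. These counts are a description with no test.

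Genes that act with the members were read from a list of 57 partners, all tested. At an adjusted p under 0.05, 23 were upregulated (40.4%, against 28.2% of all genes tested) and 9 were downregulated (15.8%, against 30.1%), with log2 fold changes between -0.38 and 0.86. With total counts alone the split was 7 and 32, against 13.4% and 52.1% of all genes tested. With TMM, 5 were downregulated without untreated replicate 3 or r-CRMP2 replicate 3. The 4 genes of the heat shock factor list were upregulated under TMM. HSF1 had 82.6, 80.97 and 84.8 CPM in untreated and 97.2, 101.1 and 100.8 CPM in r-CRMP2 libraries (log2 fold change 0.27 ± 0.03, edgeR adjusted p = 0.00089), which turned to -0.04 with total counts alone. HSF2 had 15.7, 15.9 and 18.2 CPM in untreated and 26.3, 25.98 and 24.4 CPM in r-CRMP2 libraries (log2 fold change 0.62 ± 0.07, edgeR adjusted p = 6.41e-06) and kept its call with total counts alone, at 0.31. HSF4 and HSBP1, a negative regulator of HSF1, had log2 fold changes of 0.43 and 0.25, which were 0.11 and -0.06 with total counts alone, and HSBP1 lost its call without untreated replicate 2 (edgeR adjusted p = 0.0596).

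Among 18 HSP90 cochaperones, 3 were upregulated and 5 were downregulated (16.7% and 27.8%, against 28.2% and 30.1% of all genes tested). The split was 2 and 13 with total counts alone, against 13.4% and 52.1% of all genes tested. TOMM34, which binds both HSP70 and HSP90, rose from 115.6, 107.3 and 106.5 CPM to 187.9, 214.9 and 195.2 CPM (log2 fold change 0.86 ± 0.07, edgeR adjusted p = 2.53e-09), and PPID (cyclophilin 40) had the largest fall, 0.35 on the log2 scale. Of 9 HSP70 exchange factors and adaptors, 4 were upregulated and 2 were downregulated (44.4% and 22.2%), from BAG4 at 0.56 ± 0.03 to BAG2 at -0.35 ± 0.09. With total counts alone 2 were upregulated and 5 were downregulated. BAG3, picked out after its values were seen as the partner of HSPB8, had 73.0, 74.7 and 72.7 CPM in untreated and 99.1, 104.6 and 104.7 CPM in r-CRMP2 libraries (log2 fold change 0.49 ± 0.03, edgeR adjusted p = 1.54e-06). BAG3 TPM over HSPB8 TPM was 2.94, 2.50 and 1.99 in untreated and 6.96, 8.18 and 7.34 in r-CRMP2 libraries.

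The TRiC chamber, which folds actin and tubulin, had 2 of 8 subunits upregulated, led by CCT8 at 0.38 ± 0.06, whose call was lost with total counts alone. Prefoldin, which hands clients to TRiC, had 4 of 6 subunits upregulated (66.7%) and none downregulated, led by PFDN2 at 0.65 ± 0.05 (edgeR adjusted p = 1.55e-07). With total counts alone, TRiC had 6 downregulated subunits and prefoldin had 2 upregulated and 2 downregulated. Under that scaling 13.4% of all genes tested were upregulated and 52.1% were downregulated. Of 10 mitochondrial partners 5 were upregulated and 2 were downregulated, from GRPEL2 at 0.47 ± 0.07 to CLPB at -0.38 ± 0.07. Of the mitochondrial partners none was upregulated and 6 were downregulated with total counts alone. With TMM, TRAP1 and LONP1 lost their calls with no low-count filter, with the replicate block and without some single libraries. PAM16 lost its call without untreated replicate 2 or r-CRMP2 replicate 2. TIMM44, which was downregulated, lost its call without untreated replicate 1 or r-CRMP2 replicate 3. SERPINH1 (HSP47), the collagen chaperone, was upregulated at 0.43 ± 0.04, which was 0.11 with total counts alone and did not pass (edgeR adjusted p = 0.0762), and CRYAB passed in neither direction.

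The 4 ER genes left out by the rule were all upregulated under both scalings. HSPA5 (BiP), the HSP70 of the ER, had 536, 496 and 567 CPM in untreated and 896, 1154 and 966 CPM in r-CRMP2 libraries (log2 fold change 0.92 ± 0.12, edgeR adjusted p = 1.70e-08). HSP90B1 (GRP94) and the J proteins DNAJC3 and DNAJB9 had log2 fold changes of 0.78 ± 0.03, 0.75 ± 0.08 and 1.21 ± 0.17. Of the 8 members listed as ER genes, DNAJC25 was upregulated and DNAJB12, DNAJC16 and DNAJC18 were downregulated (median log2 fold change -0.11). These are 12.5% and 37.5%, against 28.2% and 30.1% of all genes tested. DNAJB11 and DNAJC10, also on that list, passed in neither direction. HSPA13, found in microsomes but not on the list, was upregulated, with a log2 fold change of 0.84. HSPA5 TPM over HSPA8 TPM was 0.4003, 0.386 and 0.432 in untreated and 0.707, 0.835 and 0.743 in r-CRMP2 libraries. All ratios within libraries given above were chosen with the values known. Each had groups that did not overlap, and no exact permutation test of 3 against 3 can go below p = 0.1.

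**Figure D4:**
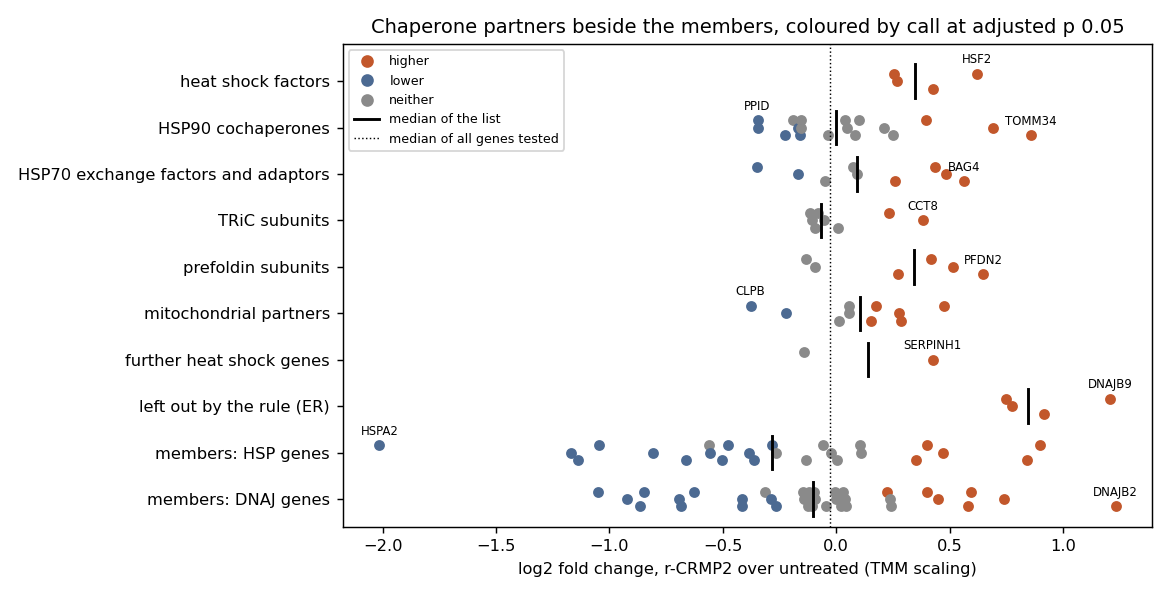
Log2 fold changes (x axis, TMM scaling) of the partner lists, of the 4 ER genes left out by the rule and of the members as HSP and DNAJ genes (y axis), 1 point a gene, coloured by call, with the list medians as bars. Medians run from -0.28 for the HSP genes and -0.10 for the DNAJ genes to 0.35 for heat shock factors and 0.85 for the ER genes; with total counts alone all points would lie about 0.31 further left.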

How the data were processed

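The authors deposited, for each of the 6 libraries, read counts per gene without normalization and the TPM that follow from counts and gene length. Per the submitters' processing notes, FastQC, HISAT2 and DESeq2 were used with hg19. The counting tool, the annotation and the use of strand are not given in the sources used here. Genes were compared with edgeR 4.0.16 (glmQLFit, glmQLFTest; R 4.3.3, limma 3.58.1) on all genes kept by its filter on low counts, with TMM scaling, group as the sole term and Benjamini-Hochberg adjustment. Standard errors are of log2 CPM with a prior count of 2. DESeq2 1.42.0, other scalings and filters, a replicate block and leaving out each library were the alternatives. When tested on simulated data for the same comparison, edgeR called 49 of 50 genes raised by a log2 change of 1 and 38 of 50 raised by 0.5, with 6 false calls among 15935 genes run. The genes changed were few and all had a mean CPM over 1, and the rest were left equal between groups. In the data 28.2% of genes tested were called upregulated and 30.1% downregulated. The simulation therefore does not give the rate of false calls here, nor the recovery of low genes such as HSPA6. Depth limits genes of low count most, and p-values cover the spread between libraries.

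Members, role lists, partner lists and named genes were chosen with earlier results of these data known. Named members were 24 core chaperones, every member with an adjusted p under 0.05 and a log2 fold change beyond 1 in size, and the 8 largest rises and 8 largest falls at that adjusted p. Named partners were the heat shock factor list and the largest rise and fall of each list. Immediate early genes, a list kept for cell stress in handling, had 8 of 14 upregulated (57.1%, against 28.2% of all genes tested) and 5 downregulated (35.7%, against 30.1%). Of 3 endothelial markers 1, CDH5, was downregulated. Gene positions are hg19 as deposited, and promoters are from RefSeq (GRCh38.p14). Stretches of 100 bases shared between genes were counted in GENCODE v29 transcripts, which matched 72 members. No protein sequences were used here.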

Additional observations from a re-analysis of the deposited data

How the results depend on the processing

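Total counts in place of TMM changed most. Members upregulated went from 13 to 6 and downregulated from 24 to 45, those also past a log2 fold change of 1 from 1 to 0 and from 5 to 10, and partners from 23 to 7 and from 9 to 32; the median of the members was -0.43. Reversed values were -0.0861 for DNAJA2, -0.28 for DNAJB4, -0.27 for DNAJC5, -0.29 for DNAJC7, -0.31 for HSPA8, -0.21 for HSPB1, -0.0563 for HSBP1 and -0.0432 for HSF1. By construction that scaling moves all genes together. Summed TPM over members, 0.822 times the untreated level, was 1.01 with TMM-scaled CPM. The median of the members was -0.10 with RLE factors and with DESeq2, -0.15 without a low-count filter and -0.13 with at least 10 counts in every library. HSPA8, near 0, was -0.0043 without the filter and -0.0107 with at least 10 counts. Without single libraries, members upregulated ranged from 13 to 14 and downregulated from 22 to 26, past a log2 fold change of 1 from 1 to 2 and from 3 to 5, partners from 18 to 23 and from 5 to 10, the median from -0.14 to -0.10 and the TPM ratio from 0.816 to 0.831. Values near 0 then changed sign: HSPA8 ran from -0.0217 to 0.0439, HSPD1 from -0.0502 to 0.0182, HSPA4L from -0.0963 to 0.0415, DNAJC5 from -0.0045 to 0.0839 and DNAJC7 from -0.0051 to 0.0504. Partners downregulated were 5 without untreated replicate 3 or r-CRMP2 replicate 3, and 6 without a low-count filter. HSPA6 lost its call under DESeq2, the block, no filter and 4 of the 6 left-out libraries, and was not tested with at least 10 counts in every library. With its group's mean subtracted from each library, gene by gene, pairs sharing a replicate number correlated at -0.0209, 0.0038 and -0.0252. With 3 libraries a group, such values cannot show whether the numbers mark real pairs. With the replicate block 13 members were upregulated and 23 downregulated, and the TPM ratio was 0.822. Over 48 named genes, 533 of 575 alternative values kept direction and call. The causes of other changes were not tested.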

Other observations

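Outside the protein-coding members, 70 other genes matched the name rule, 61 of them pseudogenes, and 4 passed the filter on low counts. DNAJC3-AS1, a non-coding gene beside DNAJC3, was downregulated from 38, 46 and 43 counts to 19, 8 and 17 counts (log2 fold change -1.22 ± 0.33, edgeR adjusted p = 0.00426), while DNAJC3 itself was upregulated. The pseudogene HSPD1P11 had 28, 23 and 32 counts in untreated and 52, 23 and 47 counts in r-CRMP2 libraries (log2 fold change 0.86 ± 0.32, edgeR adjusted p = 0.0199), and the groups overlapped slightly in CPM. HSPE1P3 had 3, 2 and 13 counts in untreated and 13, 8 and 17 counts in r-CRMP2 libraries. It was called upregulated on these few counts (log2 fold change 1.37 ± 0.60, edgeR adjusted p = 0.0425), though its groups overlapped in CPM. With total counts alone neither HSPD1P11 nor HSPE1P3 passed (edgeR adjusted p = 0.122 and 0.110). DNAJC9-AS1 passed in neither direction. HSPA7, which shares sequence with HSPA6, had at most 3 counts in any library.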
